A study of Homo sapiens with 4 samples.

Results

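The genes described here encode aminoacyl-tRNA synthetases, the enzymes that attach each amino acid to its transfer RNA. They were listed by name as 35 genes, 19 for enzymes of the cytosol and 16 for enzymes of mitochondria, whose symbols end in 2. Of these, 32 had a probe set annotated with exactly 1 gene symbol, 17 cytosolic and 15 mitochondrial, among 19775 such genes in all. Where a gene had several such probe sets, the brightest over all 4 arrays stood for it. MARS1, QARS1 and TARS2 were left out, because their probe sets list a microRNA gene as well. All 32 measured synthetases were among the 11865 genes bright enough to be tested, and the lowest synthetase intensity on any array was 225, against a filter at 70.5.

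RNA came from HEK293 cells, an established human embryonic kidney line transformed with adenovirus DNA. Cells of both groups had been grown with serum and then kept overnight in medium without it. The LPA group received lysophosphatidic acid, a phospholipid whose receptors are coupled to G proteins, at 1 µM over 2 h, and the untreated group is labelled as having no treatment, with the letters Vc in its titles left unexplained. Each group has 2 Affymetrix arrays, numbered 1 and 2. Nothing in the labels says whether a number stands for a culture, a day or a technical repeat. Every p-value below therefore rests only on the spread between these arrays, with each gene's spread estimated partly from other genes of similar intensity. In the main comparison of replicate numbers, which has no treatment term, that spread includes the difference between LPA and untreated arrays.

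Synthetases of the cytosol supply the main protein synthesis machinery, and those of mitochondria, also encoded in the nucleus, serve the few proteins made inside the organelle. Members fall into classes I and II, which differ in the fold of the catalytic domain, and several cytosolic enzymes are held together in a multi-synthetase complex. When cells lack amino acids or suffer other stress, phosphorylation of the initiation factor eIF2 favours translation of the transcription factor ATF4, and genes for cytosolic synthetases are known targets of ATF4.

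The arrays had median intensities of 70.3 to 76.1. LPA replicate 2 stood apart from the other arrays in its maximum intensity, 62508 against 93776 to 104012. Its ACTB 3′-to-5′ ratio also stood apart, at 18.8 against 12.6 to 13.6. Its GAPDH 3′-to-5′ ratio did not, at 1.38 beside 1.35 on LPA replicate 1 and 1.22 to 1.25 on the untreated arrays. Over the 1187 brightest tested genes, the median log2 difference between LPA and untreated was -0.15 in number 2 and 0 in number 1. All 9 HEK293 markers examined (VIM, NES, NEFL, NEFM, INA, KRT8, KRT18, PAX2 and CDH2) passed the filter, whereas the blood markers PTPRC and CD3E, the fibroblast markers COL1A2 and DCN, the hepatocyte markers ALB and APOA1 and the endothelial marker CDH5 did not. HBB, COL1A1 and PECAM1, also on those lists, did pass. Their mean log2 intensities were 6.88, 9.96 and 6.4, against 6.24 for NES and 6.72 for PAX2. NES passed by its mean only, since it read 45.2 untreated and 68.1 with LPA in number 2, below the filter at 70.5.

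ATF4 binds, with a C/EBP partner, a composite element written TGATGNAA. Promoter windows running from 250 bases before to 50 bases after the start site were taken from RefSeq on GRCh38.p14, and 30 of the 35 synthetase genes were matched, with LARS1, VARS1, YARS1, AARS2 and VARS2 unmatched. The 8 letters, sought on both strands in the first window listed for each gene, were present in 7 of 30 synthetase windows, 6 of 16 cytosolic (37.5%) and 1 of 14 mitochondrial (7.14%). Of 15843 protein-coding genes with a window, 401 (2.53%) held them, as did 5 of 27 on a list of stress response targets (18.5%). All 6 cytosolic matches, in AARS1, CARS1, IARS1, MARS1, NARS1 and TARS1, had the same inner letters, TTGCATCA or its reverse complement TGATGCAA, and in 5 of them the match began within 15 bases of the start site. The windows below show the matches in measured genes, since the comparisons that follow can be read against them. Each runs 5′ to 3′ on the strand of the gene, with the matched letters in capitals. They lie at chr16:70289672-70289731 for AARS1, chr11:3057404-3057463 for CARS1, chr9:92293689-92293748 for IARS1 and chr18:57621807-57621866 for NARS1, all on the minus strand, and at chr5:33440929-33440988 for TARS1, on the plus strand. YARS2, the mitochondrial match, is at chr12:32756073-32756132 on the minus strand, and CHAC1, 1 of those 5 stress response genes, at chr15:40953224-40953283 on the plus strand.
AARS1: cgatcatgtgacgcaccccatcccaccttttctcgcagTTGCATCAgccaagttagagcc
CARS1: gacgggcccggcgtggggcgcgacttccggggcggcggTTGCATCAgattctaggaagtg
IARS1: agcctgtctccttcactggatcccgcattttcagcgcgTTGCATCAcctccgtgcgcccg
NARS1: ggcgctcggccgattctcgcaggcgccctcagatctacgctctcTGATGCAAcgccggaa
TARS1: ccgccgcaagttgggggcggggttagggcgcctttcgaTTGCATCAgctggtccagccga
YARS2: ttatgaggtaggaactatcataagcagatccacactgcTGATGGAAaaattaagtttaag
CHAC1: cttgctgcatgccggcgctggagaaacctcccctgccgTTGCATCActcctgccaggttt

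**Figure D1:**
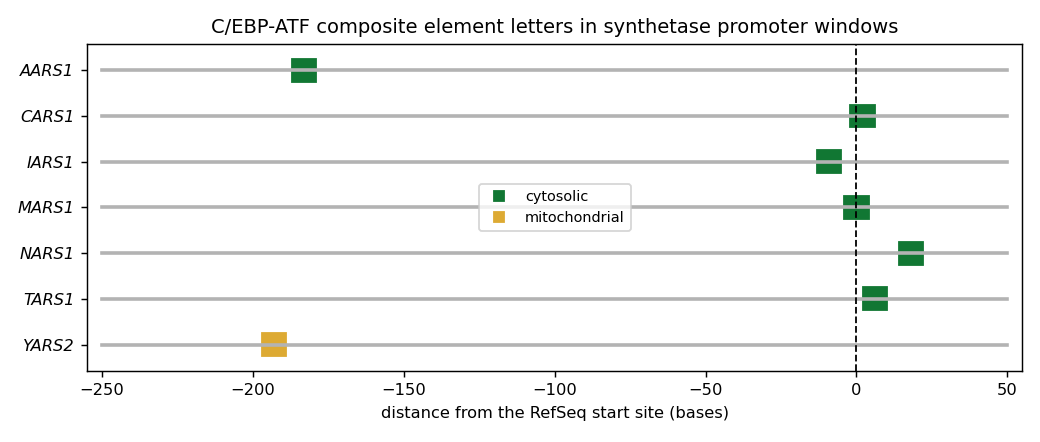
Position of the 8-letter match in the promoter windows of the 7 synthetase genes that hold it. The horizontal axis is the distance from the RefSeq start site in bases, with the dashed line at the start site, grey bars are the windows, and boxes are the matches, green for cytosolic and yellow for mitochondrial genes. CARS1, IARS1, MARS1, NARS1 and TARS1 have the match beside the start site, and AARS1 and YARS2 have it 187 and 197 bases upstream.

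HARS1 and HARS2, the cytosolic and mitochondrial histidine enzymes, are neighbours on chromosome 5 with no protein-coding gene between them, and they are read in opposite directions. The 84 bases between their start sites, chr5:140691371-140691454 on GRCh38.p14, written on the HARS2 strand, are shown because this stretch lies within the promoter windows of both genes.
HARS1-HARS2: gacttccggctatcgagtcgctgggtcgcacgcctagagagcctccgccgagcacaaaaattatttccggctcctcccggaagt

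LPA and untreated arrays were compared to see which synthetase transcripts differ 2 h after LPA in serum-starved cells. None of the 32 synthetases passed the test at an adjusted p of 0.05, and neither did any other gene (0 of 11865, 0%), with a limma adjusted p of 0.9999 for each synthetase. At an unadjusted limma p under 0.05 there was 1 synthetase, RARS1. Of all genes tested, 207 (1.74%) passed that mark, 140 on the higher side (1.18%) and 67 on the lower (0.565%). The 1.74% lay below the 5% expected if no gene differed. That fit has no term for the replicate number, so differences between numbers count in its spread. With the replicate number as a block, 3 of 32 synthetases and 1014 of 11865 genes had an unadjusted limma p under 0.05. The synthetase share was close to that of all genes, and both lay above 5%. No synthetase passed after adjustment in the block fit. The LPA arrays read wholly above the untreated ones for 5 synthetases and wholly below them for 5, or 15.6% each, beside 14.4% and 12.5% of all genes tested. These shares are near the background. In arrays of bulk RNA, fewer cells and less RNA per cell cannot be told apart.

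**Figure D2:**
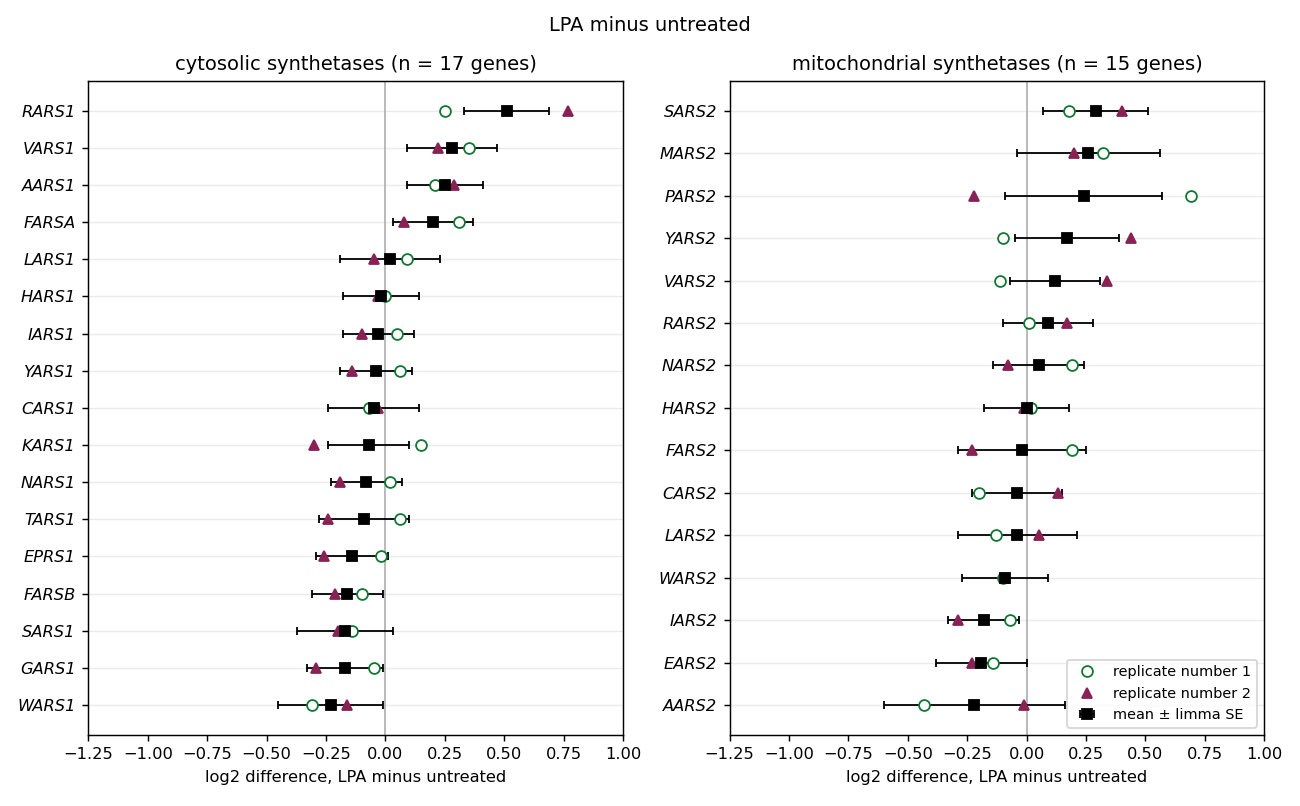
Log2 difference between LPA and untreated arrays for 17 cytosolic (left) and 15 mitochondrial (right) synthetases, ordered by the mean. Open circles are replicate number 1, triangles number 2, and squares with bars the mean with limma's standard error (2 arrays per group). RARS1 has the highest mean, 0.51, and the other genes lie between -0.23 and 0.29.

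RARS1 encodes the arginine enzyme, a member of the multi-synthetase complex. It read 4710 and 3565 on untreated arrays 1 and 2, against 5605 and 6081 with LPA. The log2 difference was 0.51 ± 0.18 (SE, 2 arrays per group), with 0.25 in number 1 and 0.77 in number 2. Its unadjusted limma p was 0.0184. The groups did not overlap, but the lowest value of the gene, on untreated array 2, entered the second difference: without that array the log2 difference was 0.31, and without LPA replicate 2 it was 0.45. RARS1 has 1 probe set only. RARS2, its mitochondrial counterpart, read 2132 and 2480 untreated and 2150 and 2784 after LPA, and those groups overlapped (log2 difference 0.09 ± 0.19).

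Cytosolic synthetases with both LPA values on the higher side included AARS1, which charges alanine. Its intensities were 2434 and 2249 untreated against 2824 and 2753 after LPA, a log2 difference of 0.25 ± 0.16, with 0.21 in number 1 and 0.29 in number 2. VARS1, for valine, read 1059 and 985 against 1346 and 1151 (0.28 ± 0.19). FARSA, the alpha subunit of the phenylalanine enzyme, read 2202 and 2699 against 2728 and 2861 (0.20 ± 0.17), but its other probe set differed by -0.12. FARSB, the beta subunit of the same enzyme, lay on the lower side, with 5331 and 5791 untreated against 4981 and 4994 after LPA (-0.16 ± 0.15), and a dim second probe set differed by 0.62. The subunits of this enzyme thus had differences of opposite sign, each about as large as its standard error. Without untreated replicate 1 the FARSA difference was 0.05, without untreated replicate 2 that of FARSB was -0.10, and without LPA replicate 1 that of VARS1 was 0.17.

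GARS1, the glycine enzyme, which serves both compartments, read 10704 and 12879 untreated against 10307 and 10529 after LPA (-0.17 ± 0.16), with -0.31 left without untreated replicate 1 and -0.04 without untreated replicate 2. EPRS1, a fused enzyme for glutamate and proline in the multi-synthetase complex, read 8844 and 10257 against 8720 and 8584 (-0.14 ± 0.15). Its other probe sets differed by -0.77 and -0.31. In GARS1, EPRS1 and FARSB the groups did not overlap, and the untreated array of number 2 was the highest of the 4. KARS1, the lysine enzyme and the other gene whose product serves both compartments, went opposite ways in the replicate numbers. It went from 33457 to 37220 in number 1 and from 37663 to 30584 in number 2. TARS1, the threonine enzyme, differed by -0.09 ± 0.19. A dim second TARS1 probe set read 41.6 and 57.7 untreated against 119 and 132 after LPA. Its difference of 1.34 did not pass in a limma fit over all probe sets with 1 symbol.

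Among mitochondrial enzymes, SARS2, for serine, was the only one with both LPA values above both untreated values (594 and 543 against 671 and 716, log2 difference 0.29 ± 0.22). IARS2, for isoleucine, read 8788 and 8968 untreated against 8370 and 7346 after LPA (-0.18 ± 0.15), and its difference was -0.08 without LPA replicate 2. EARS2, for glutamate, read 1053 and 1228 against 956 and 1045 (-0.19 ± 0.19), and its other probe sets above the filter differed by 0.31, -0.01 and -0.16. The remaining mitochondrial genes overlapped between groups, with log2 differences from -0.22 for AARS2 to 0.26 for MARS2.

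As a group, cytosolic synthetases had a median log2 difference of -0.05 after LPA and mitochondrial ones 0, beside 0.01 over all genes tested. Of the 17 cytosolic genes 5 lay above 0 and 12 below, but the split depended on the array: 10 were above 0 in number 1, with a median of 0.05, and 13 were below it in number 2, with a median of -0.14, where LPA replicate 2 carried the lower signal of bright genes described above. Without LPA replicate 2, 6 lay above 0 and 11 below, without untreated replicate 2, 12 lay above and 5 below with a median of 0.06, and quantile normalization, which equalises the shape of the intensity distributions, gave 10 above and 7 below with a median of 0.02. The part of bright signal in the cytosolic direction was not tested. Class I enzymes had a median of -0.04 (17 tested) and class II enzymes -0.05 (16 tested, EPRS1 being in both), and the 5 measured enzymes of the multi-synthetase complex -0.03.

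**Figure D3:**
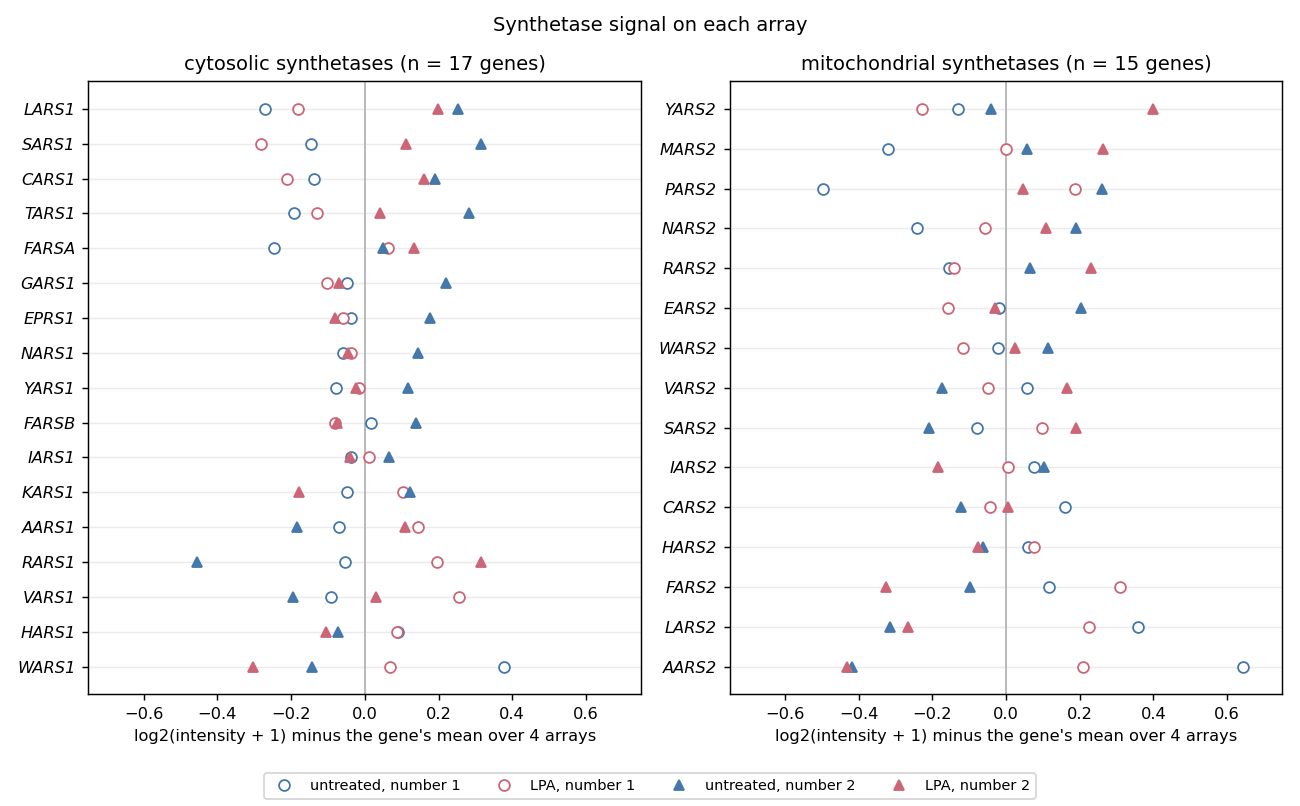
Signal of each synthetase on each of the 4 arrays, as log2(intensity + 1) minus the gene's own mean over the arrays, for 17 cytosolic (left) and 15 mitochondrial (right) genes. Circles are number 1 and triangles number 2, blue untreated and red LPA. For LARS1, SARS1 and CARS1 both triangles lie to the right of both circles, and for LARS2 and AARS2 both lie to the left, whereas blue and red overlap in 22 of the 32 rows.

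Replicate numbers were compared next, with 1 untreated and 1 LPA array on each side, because same-numbered arrays share a label that the treatment does not. Here 2 synthetases passed, both mitochondrial and both lower on the number 2 arrays: LARS2, for leucine, 1.5-fold lower, and AARS2, for alanine, 1.8-fold lower. Among all genes tested, 445 passed (3.75%), 248 of them lower (2.09%) and 197 higher (1.66%). No cytosolic synthetase passed, and the nearest, LARS1, for leucine, had a limma adjusted p of 0.0511. At an unadjusted limma p under 0.05 there were 7 synthetases higher and 4 lower, beside 10.2% and 9.79% of all genes in those directions and 19.9% in either. Number 2 values lay wholly above number 1 values for 9 of the 32 (28.1%, beside 26.5% of all genes) and wholly below for 6 (18.8%, beside 24.1%), shares near the background.

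**Figure D4:**
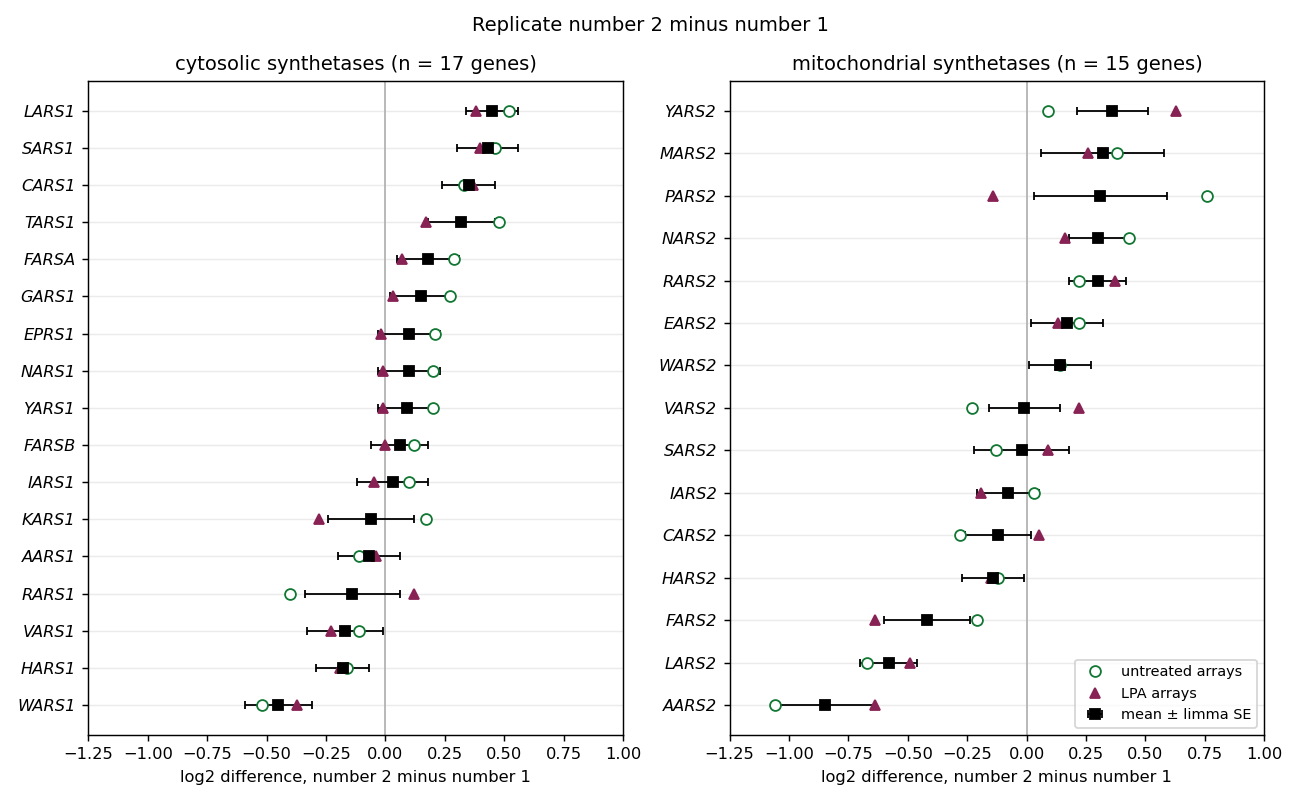
Log2 difference between replicate numbers 2 and 1 for 17 cytosolic (left) and 15 mitochondrial (right) synthetases, ordered by the mean. Open circles are the untreated arrays, triangles the LPA arrays, and squares with bars the mean with limma's standard error (2 arrays per number). The lowest means are those of AARS2 (-0.85) and LARS2 (-0.58), and the highest that of LARS1 (0.45).

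LARS2 read 3015 and 2750 on the untreated and LPA arrays of number 1, and 1893 and 1956 on those of number 2. Both number 2 values were well below both number 1 values, and the log2 difference of -0.58 ± 0.12 (SE, 2 arrays per number; limma adjusted p = 0.0241) was made up of -0.67 in untreated and -0.49 in LPA arrays. Its second probe set read 1419 and 1113 against 1006 and 788, a difference of -0.50 in the same direction (adjusted p = 0.161 in a limma fit over all probe sets with 1 symbol). The call was lost without untreated replicate 1 (-0.51, adjusted p = 0.216), with the mean of all probe sets (-0.54, 0.071) and without the intensity trend in the variance (0.244).

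AARS2 read 839 and 621 on number 1 against 402 and 398 on number 2, a log2 difference of -0.85 ± 0.21 (limma adjusted p = 0.047). The number 2 values were nearly equal, and untreated replicate 1 was the highest of the 4. A second probe set agreed in direction, with 392 and 266 against 166 and 181 (-0.89, adjusted p = 0.146 in the limma fit over all probe sets). The call did not survive leaving out untreated replicate 1 (adjusted p = 0.384), untreated replicate 2 (0.0757) or LPA replicate 2 (0.0871), nor testing without an intensity filter (0.0683), with the mean of all probe sets (0.0769) or without the trend (0.243).

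Without untreated replicate 1, 0 synthetases and 39 genes passed in all. Without an intensity trend 0 of 11865 genes passed limma's test, although 1869 genes and 4 synthetases had an unadjusted p under 0.05. With treatment as a term in the model, 1382 genes passed (11.6%, with 5.79% higher and 5.86% lower) and 5 synthetases did: AARS2 (adjusted p = 0.00559) and LARS2 (0.000837) again, WARS1 on the lower side (0.00997), and LARS1 (0.0114) and SARS1 (0.0227) on the higher side.

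LARS1, a subunit of the multi-synthetase complex that is also known as a leucine sensor for growth signalling, read 5582 and 5946 on number 1 and 8027 and 7732 on number 2. The groups were well apart (log2 difference 0.45 ± 0.11), though its other probe sets gave smaller differences of 0.28, 0.11 and 0.05. Without LPA replicate 2, LARS1 (adjusted p = 0.0407 with limma), SARS1 (0.029) and TARS1 passed beside LARS2, which made 4 synthetases. SARS1, for serine, read 7668 and 6970 against 10547 and 9170 (0.43 ± 0.13, limma adjusted p = 0.0827), and its dimmer probe set differed by 0.30. CARS1, for cysteine, read 7258 and 6902 against 9112 and 8926 (0.35 ± 0.11, adjusted p = 0.114), and another probe set also gave 0.35. A dim CARS1 probe set gave 0.22, made up of 0.95 in untreated and -0.51 in LPA arrays. TARS1, for threonine, read 13930 and 14543 against 19371 and 16392 (0.32 ± 0.14, adjusted p = 0.222). These 4 genes were the cytosolic synthetases whose number 2 values lay wholly above those of number 1.

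WARS1, for tryptophan, was the cytosolic gene with the largest difference in the other direction. It read 2673 and 2160 on number 1 and 1865 and 1668 on number 2 (-0.45 ± 0.14, limma adjusted p = 0.0921), with no overlap, its other probe set gave -0.40, and without untreated replicate 1 the difference was -0.29. The gene is well known as an interferon target. HARS1 read 4256 and 4254 against 3803 and 3719 (-0.18 ± 0.11), and HARS2, its neighbour on chromosome 5, 1462 and 1478 against 1343 and 1330 (-0.14 ± 0.13). The differences of these neighbours were alike in sign in both treatments (-0.16 and -0.19 for HARS1, -0.12 and -0.15 for HARS2), and neither passed.

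Several mitochondrial genes lay on the higher side on number 2. RARS2, for arginine, read 2132 and 2150 against 2480 and 2784 (0.30 ± 0.12, limma adjusted p = 0.184), and its next probe set gave 0.33. NARS2, for asparagine, read 2140 and 2436 against 2888 and 2731 (0.30 ± 0.12, adjusted p = 0.185). YARS2, for tyrosine, read 1685 and 1573 against 1792 and 2430 (0.36 ± 0.15, adjusted p = 0.21), where LPA replicate 2 alone was high. FARS2, for phenylalanine, went the other way, with 722 and 825 against 622 and 531 (-0.42 ± 0.18, adjusted p = 0.212). MARS2, for methionine, and PARS2, for proline, were the dimmest members, at 225 to 381 on every array, with standard errors of 0.26 and 0.28.

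Members that differed little between numbers included most of the brightest cytosolic enzymes. IARS1, for isoleucine, read 23472 and 24281 on number 1 and 25182 and 23432 on number 2 (0.03 ± 0.15). NARS1, for asparagine, differed by 0.10 ± 0.13, YARS1, for tyrosine, by 0.09 ± 0.12, EPRS1 by 0.10 ± 0.13 and GARS1 by 0.15 ± 0.13. Other probe sets of EPRS1 differed by -0.39 and -0.11. A dimmer YARS1 probe set read 201 and 233 on number 1 against 321 and 430 on number 2, a difference of 0.78. KARS1 differed by -0.06 ± 0.18, which combined 0.17 in untreated and -0.28 in LPA arrays, and another probe set gave 0.21. Over the 24 other probe sets of synthetases above the filter, 17 had the sign of the brightest one between numbers and 12 had it after LPA.

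For most amino acids a cytosolic and a mitochondrial enzyme could be set side by side, in 15 pairings. FARS2 was paired with both FARSA and FARSB, and EPRS1 with both EARS2 and PARS2, so these genes were counted more than once. In 8 of them the number differences had opposite signs, and in 7 the same. Leucine had the widest gap, 1.03 on the log2 scale between 0.45 for LARS1 and -0.58 for LARS2. The gap was 1.19 in untreated and 0.87 in LPA arrays. Its size depends on the probe set, since other LARS1 probe sets differed by 0.28, 0.11 and 0.05. Alanine followed with 0.78 (AARS1 -0.07, AARS2 -0.85), then phenylalanine with 0.60 for FARSA against FARS2. Tryptophan ran in the opposite order, with WARS1 at -0.45 and WARS2 at 0.14. Another WARS2 probe set above the filter differed by -0.22, so the opposite signs for tryptophan depend on the probe set. These gaps were not tested.

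Over the whole group, the median difference between numbers was 0.09 for cytosolic and -0.01 for mitochondrial synthetases, beside 0.01 for all genes tested. The cytosolic median was 0.20 in untreated arrays, with 12 of 17 genes above 0, and -0.01 in LPA arrays, with 8 above. The mitochondrial medians were 0.03 and 0.09. Without LPA replicate 2 the cytosolic median was 0.16, and without untreated replicate 2 it was 0. Among cytosolic genes, the 5 measured ones with the composite element letters in the window (AARS1, CARS1, IARS1, NARS1 and TARS1) ranged from -0.07 to 0.35 with a median of 0.10. The 9 with a window but without those letters ranged from -0.45 to 0.43 with a median of 0.06. The first range lies within the second.

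**Figure D5:**
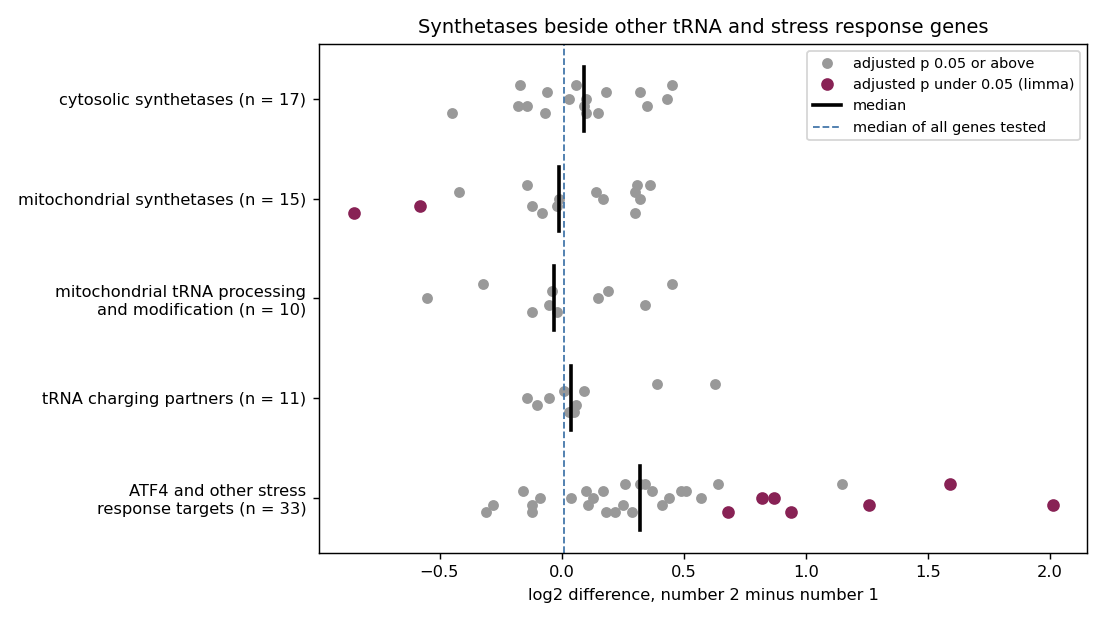
Log2 difference between replicate numbers 2 and 1 for the tested genes of 5 lists, 1 point per gene, with points offset vertically for legibility. Black bars are list medians, the dashed line is the median of all genes tested (0.01), and filled purple points passed limma's test. The medians are 0.09 for cytosolic and -0.01 for mitochondrial synthetases and 0.32 for the ATF4 and stress response list. On that list, chosen with earlier results of these data known, 7 of 33 genes passed.

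Other genes of the stress response in which cytosolic synthetases are known to take part were compared in the same fit. Of 33 tested genes on a list of ATF4 and other stress response targets, 7 rose on number 2 and 0 fell, beside 1.66% and 2.09% of all genes. The list's median difference was 0.32. This list was chosen with earlier results of these data known, so its counts and shares are descriptive only. DDIT4, an inhibitor of the growth kinase mTORC1, read 1767 and 1565 on number 1 against 4610 and 5427 on number 2 (1.59 ± 0.13, limma adjusted p = 0.000312). CTH, an enzyme of cysteine synthesis, read 3142 and 3562 against 8234 and 7790 (1.26 ± 0.12, adjusted p = 0.000666). SLC7A11, the cystine transporter, differed by 0.87 ± 0.12 (adjusted p = 0.00798). All of these had number 2 values far above those of number 1.

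ASNS, which makes asparagine, read 7254 and 7565 against 13962 and 12225 (0.82 ± 0.12, limma adjusted p = 0.011), TRIB3, a pseudokinase that restrains ATF4, differed by 0.94 ± 0.15 (0.0121), and CHAC1, which degrades glutathione, read 122 and 78.0 against 393 and 402 (2.01 ± 0.33, 0.0121). The remaining gene that passed, named here after its values were seen, was CEBPB, a C/EBP factor, at 0.68 ± 0.11. DDIT3, another transcription factor of the response, differed by 0.51 ± 0.13 without passing (adjusted p = 0.0612), and passed with treatment as a term (0.00702). ATF4 itself read 44119 and 41079 against 49420 and 31265, with its groups overlapping (-0.12 ± 0.22) and its lowest value on LPA replicate 2.

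The share of genes with number 2 wholly above number 1 was 66.7% on the stress list (22 of 33), 23.5% among cytosolic synthetases (4 of 17) and 26.5% over all genes. The difference between the stress list and the synthetases was not tested. The count of stress list genes that rose was 12 with treatment as a term, 3 without untreated replicate 1 and 0 without an intensity trend, and it was 6 to 10 under the other alternatives with 1 exception, 14 when the treatment term was combined with quantile normalization. No stress list gene was called lower in the main fit, but 1 was when the treatment term was combined with quantile normalization. Genes for eIF2 and its kinases, which act upstream of ATF4, had 0 of 7 past the test. EIF2AK1, the kinase for haem shortage, differed by 0.25 ± 0.11, and EIF2AK2, the kinase activated by double-stranded RNA, by -0.05 ± 0.13.

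Partners of the synthetases were also examined between numbers. AIMP1, a scaffold of the multi-synthetase complex and the only 1 of the 3 scaffold genes with a usable probe set, differed by -0.24 ± 0.11 (limma adjusted p = 0.261). None of 11 tested tRNA charging partners passed. TRNT1, which adds the CCA end to tRNAs, read 794 and 975 against 1094 and 1221 (0.39 ± 0.16, adjusted p = 0.189), and SEPSECS, which completes selenocysteine on its tRNA, differed by 0.63 ± 0.38 at intensities of 88.5 to 173.

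Of 3 tested elongation factors of the cytosolic ribosome, EEF1A1 and EEF1A2, which deliver charged tRNA, and EEF2, which moves the ribosome along, 1 passed, beside 3.75% of all genes. EEF1A2, the form of elongation factor eEF1A typical of muscle and neurons, rose from 462 and 530 to 795 and 929 (0.80 ± 0.18, limma adjusted p = 0.0382). The call was lost without untreated replicate 1 (0.217), without LPA replicate 2 (0.126), without a filter (0.0547) and without an intensity trend (0.239). EEF1A1, the general form, differed by -0.25 ± 0.23 and EEF2 by -0.12 ± 0.22, and both were lowest on LPA replicate 2. On the mitochondrial side 0 of 3 passed, with TSFM, the exchange factor, at -0.36 ± 0.11 (adjusted p = 0.0974 with limma, and 0.0295 with treatment as a term) and GFM1, the translocase, at -0.22 ± 0.13.

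Among 10 genes that process or modify mitochondrial tRNAs, 0 passed. GTPBP3 and MTO1, whose products work together on the wobble uridine, lay on opposite sides. GTPBP3 read 1809 and 1758 on number 1 against 1088 and 1359 on number 2 (-0.55 ± 0.14, limma adjusted p = 0.0552, and 0.0045 with treatment as a term), and MTO1 read 1996 and 2204 against 2807 and 2498 (0.34 ± 0.12, adjusted p = 0.144).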

How the data were processed

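The deposited intensities, linear and 1 per probe set, come from MAS5, per the submitters' processing notes. Its version was not given in the sources used here. The mean after trimming 2% at each end was 500.1 on all 4 arrays, so the arrays had been scaled before deposit. Of 54675 probe sets, 41097 carry 1 gene symbol, 1801 several and 11777 none. Each gene took its brightest probe set with 1 symbol, and a gene needed a mean log2 intensity at or above the 40th percentile. Values were taken as log2(intensity + 1), which understates folds of dim genes. Comparisons used limma 3.58.1 in R 4.3.3 (lmFit and eBayes, trend = TRUE), with two-sided tests, without a second term, with Benjamini-Hochberg adjustment over all 11865 genes and a threshold of 0.05. The procedure was tested on simulated data. With 4 arrays precision is limited: the median standard error of a log2 difference was 0.244 for LPA and 0.184 between replicate numbers. Members and lists were chosen with earlier results of these data known. Genes given with full values were the 8 synthetases of smallest p in each comparison, with others in brief, and, from other lists, those past the threshold or of smallest p, with ATF4, DDIT3, TRIB3, ASNS and CHAC1 always given. Alternatives covered the pseudocount, filter, scaling, probe set, variance trend, second term and each array left out.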

Additional observations from a re-analysis of the deposited data

Results flagged for a closer look

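The cytosolic median of the LPA difference had opposite signs in the replicate numbers, 0.05 in number 1 and -0.14 in number 2. The cytosolic median between replicate numbers likewise differed in sign by treatment, 0.2 in untreated and -0.01 in LPA arrays. Without untreated replicate 2 these medians were 0.06 and 0, and without LPA replicate 2 they were -0.05 and 0.16. VARS2, the mitochondrial valine enzyme, read 1270 and 1082 on untreated arrays 1 and 2 and 1181 and 1371 on LPA arrays 1 and 2, so its difference between numbers was -0.23 in untreated and 0.22 in LPA arrays. None of these differences between groups was tested, since each rests on 1 array against 1.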

How the results depend on the processing

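For LPA, the count of genes past the threshold was 0 in the primary analysis and under other scalings, filters, pseudocounts and probe set rules, 32 with the replicate number as a block, 6 with the replicate block and quantile normalization, and 0 to 3 with 1 array left out. No synthetase passed for LPA under any alternative. RARS1 came nearest with the replicate block (limma adjusted p = 0.0605). CBS, of the stress list, passed with the block (0.00692) but not with the block and quantile normalization (0.0762). The numbers are not known to pair the arrays: deviations of same-numbered arrays from their group means correlated at 0.33 over genes, with 2 pairs. The mitochondrial LPA median of 0 became -0.04 with median centring and ranged from -0.02 to 0.07 with 1 array left out.

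Between replicate numbers, 445 genes passed, 219 with no filter, 189 with the mean of all probe sets, 0 without an intensity trend, 1382 with treatment as a term, 1155 with that term and quantile normalization, and 39 to 631 with 1 array left out. The 2 synthetases became 1 with no filter, 5 with quantile normalization, 0 with the mean of all probe sets, 0 without a trend, 5 with treatment as a term, 7 with that term and quantile normalization, and 0 to 4 with 1 array left out. The mitochondrial median of -0.01 ranged from -0.02 to 0.09 with 1 array left out. Among the 8 synthetases of smallest p in each comparison, signs turned for FARSB after LPA with the mean of probe sets (0.23) or its other probe set (0.62), for FARSA after LPA with its other probe set (-0.12), and for RARS2 between numbers with a dim probe set (-0.06). Quantile normalization kept 26 of 32 synthetase signs after LPA and 30 of 32 between numbers. The cause of these changes was not tested. MARS2 and PARS2, the dimmest members, fell below the filter at the 60th percentile.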

Other observations

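After LPA, 0 genes passed on each of the other lists, in either direction. CBS, which joins serine to homocysteine on the way to cysteine, had the smallest unadjusted limma p on the stress response list, 0.00373. It read 2418 and 2518 untreated against 1680 and 1426 after LPA, a log2 difference of -0.67 with no overlap between groups, and its limma adjusted p was 0.9999. CTH, the next enzyme of that route and a gene that rose between replicate numbers, differed by 0.05 after LPA. ATF4 read 44119 and 49420 untreated against 41079 and 31265 after LPA (-0.38, of which -0.10 in number 1 and -0.66 in number 2), with the lowest value on LPA replicate 2.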
